A study of Homo sapiens with 34 samples.

Results

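The GATA transcription factors GATA1, GATA2, GATA3, GATA4, GATA5 and GATA6 and their zinc finger cofactors ZFPM1 and ZFPM2, also called FOG1 and FOG2, were followed through blood formation from H1 human embryonic stem cells, an established cell line. These 8 genes were taken by symbol from an RNA sequencing table of 20255 genes. All 8 passed the filter on low values, as did 19788 genes in all. Cells were differentiated as flat cultures seeded from embryoid bodies (EBs), without added haematopoietic cytokines. BMP4 and VEGF were given at the start to induce mesoderm, and VEGF was afterwards the only growth factor. The 34 samples comprised 1 of undifferentiated H1 cells and 3 biological replicates of each of 11 populations. Day 0 EBs and the cultures of days 2 and 4 were sequenced unsorted. On days 6, 9 and 12 cells were sorted into CD43+ and CD43- cells, and on day 16 into CD43+/CD45+ and CD43-CD45- cells, called CD43+ and CD43- below. CD43, encoded by SPN, marks early blood cells, and CD45, encoded by PTPRC, is the common leukocyte antigen.

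GATA factors bind the DNA core GATA through a pair of zinc fingers. GATA1 is required in erythroid cells, megakaryocytes, mast cells and eosinophils. GATA2 acts in haemogenic endothelium, from which the first blood cells bud, and in blood progenitors, and GATA1 takes its place on chromatin as erythroid cells mature. GATA3 is a regulator of T cells and innate lymphoid cells and is also expressed in trophoblast and amnion. GATA4, GATA5 and GATA6 act in heart, gut and extraembryonic endoderm and the mesoderm next to them. ZFPM1 is the partner of GATA1 in red cells and megakaryocytes, and ZFPM2 the partner of GATA4 in the heart.

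Values are the authors' GC-normalised tag counts, rounded to whole numbers. They hold the same set of values in all 34 samples, with a total of 17856940 and a median of 197, so that they give a gene's place within a sample and sequencing depth is unknown. They are not per length, and levels of different genes were not compared. Fold changes are on the log2(value + 1) scale and come from limma, and a gene was called at an adjusted p below 0.05 and a change above 4-fold. The 3 replicates of a population correlated at r between 0.951 and 0.987 over all genes. The sort marker SPN lay between 2338 and 9460 in CD43+ samples and between 18 and 328 in CD43- samples. PTPRC was between 0 and 8 in day 6 CD43+ samples and between 6920 and 15868 on days 12 and 16. The samples hold whole populations, in which fewer cells of a type and less RNA per cell cannot be told apart.

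**Figure D1:**
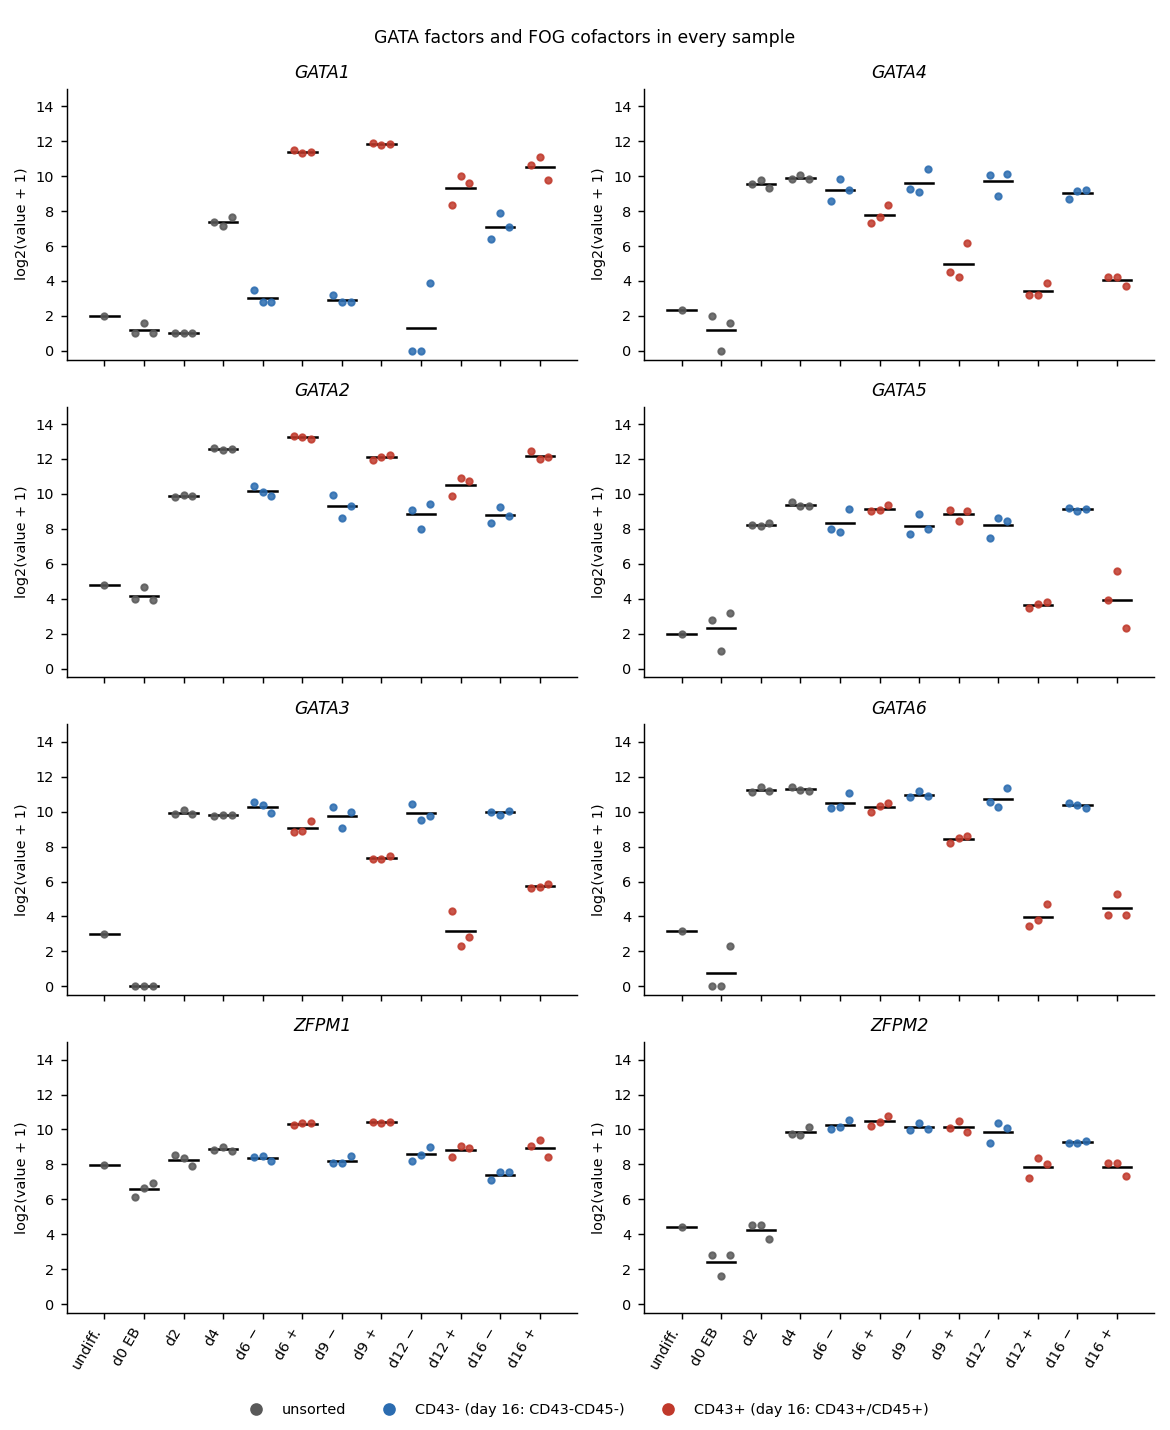
Value of each of the 8 genes in each sample, as log2(value + 1), by population (undifferentiated cells, EBs on day 0, unsorted cells on days 2 and 4, and CD43- and CD43+ cells on days 6, 9, 12 and 16); points are samples and bars are means. GATA1 lies at 870 or above in the CD43+ samples of days 6, 9 and 16, and GATA4, GATA5 and GATA6 lie at or below 48 in all CD43+ samples of days 12 and 16.

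Nearly the whole GATA family came up between day 0 and day 2, before any sorted blood cell. GATA2, GATA3, GATA4, GATA5 and GATA6 were called higher on day 2, 5 of the 8 members where 4.40% of all genes tested were called higher. GATA6 was at 0, 0 and 4 in the day 0 EBs and at 2216, 2702 and 2310 on day 2. GATA4 was at 3, 0 and 2 and then at 746, 886 and 648. GATA5 went from 6, 1 and 8 to 303, 281 and 318. Each of these 3 endoderm and heart factors was thus close to 0 in every day 0 sample and at 281 or above in every day 2 sample. GATA3 was listed at 0 in all 3 day 0 samples and stood at 932, 1095 and 915 on day 2, for which no fold is given. GATA2 rose from 15, 24 and 14 to 889, 972 and 943. In undifferentiated H1 cells the 6 GATA genes had values between 3 and 27, near those of the EBs.

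The log2 fold change from day 0 to day 2 was 10.46 for GATA6 (SE 0.42, adjusted p = 1.25e-16), 8.36 for GATA4 (SE 0.48, adjusted p = 1.24e-13), 5.91 for GATA5 (SE 0.54, adjusted p = 1.56e-09) and 5.69 for GATA2 (SE 0.31, adjusted p = 4.08e-14). Because the day 0 values are so low, the size of 3 of these rests in part on single EB samples. Without day 0 replicate 3 the value of GATA6 was 11.23, and without replicate 2 those of GATA4 and GATA5 were 7.77 and 5.25. GATA1 took no part in this first step and was at 1 or 2 in every sample of days 0 and 2. The cofactors moved less than 4-fold. ZFPM1 went from 70, 98 and 121 to 374, 328 and 235, a log2 difference of 1.70 (SE 0.23, adjusted p = 1.54e-06), and ZFPM2 from 6, 2 and 6 to 22, 22 and 12, a difference of 1.85 (SE 0.32, adjusted p = 5.34e-05).

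Many genes of cardiac mesoderm and endoderm, where GATA4, GATA5 and GATA6 act, and of trophoblast and amnion were also higher on day 2. Of 21 cardiac mesoderm genes tested, 11 rose and 2 fell, with a median log2 change of 2.88 beside -0.010 over all genes. HAND1, a mesoderm and heart transcription factor, rose most (9.76, SE 0.48, adjusted p = 6.17e-15). Of 16 trophoblast and amnion genes, 10 rose, led by CDX2 (10.43, SE 0.55, adjusted p = 2.20e-14), a factor of trophectoderm that posterior mesoderm also expresses. Of 22 endoderm genes, 7 rose and 1 fell. EOMES, a factor of mesoderm and endoderm that is also on the list of lymphoid genes, rose by 9.18 (SE 0.77, adjusted p = 3.28e-10).

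GATA1 and ZFPM2 appeared between day 2 and day 4, when GATA2 rose further. These 3 of 8 members were called higher, beside 4.97% of all genes. GATA1 went from 1 in each of the 3 day 2 samples to 166, 140 and 203 on day 4 (log2 fold change 6.40, SE 0.62, adjusted p = 4.24e-09). ZFPM2 reached 850, 831 and 1130 (5.61, SE 0.32, adjusted p = 2.19e-13). GATA2 reached 6242, 5777 and 6000 (2.68, SE 0.31, adjusted p = 8.36e-08). In all 3 genes the day 4 samples lay far above the day 2 samples without overlap. GATA3, GATA4 and GATA6 kept near their day 2 values, with differences between -0.13 and 0.35 and adjusted p from 0.613 to 0.957, while GATA5 was at 734, 630 and 642 (1.15, SE 0.54, adjusted p = 0.0970).

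From day 2 to day 4, 7 of 15 partners of GATA factors in blood rose and 8 were not called. They were led by FLI1, an ETS factor of endothelium and megakaryocytes (7.36, SE 0.37, adjusted p = 1.76e-14). Of 18 haemogenic endothelium genes, 11 rose, led by the endothelial adhesion molecule PECAM1 (8.88, SE 0.34, adjusted p = 1.13e-16). Of 28 erythroid genes, 7 rose and 2 fell. Among the 9 other genes with a GATA-type zinc finger, which include subunits of chromatin complexes such as MTA1 and GATAD2A, 0 were called by limma in either of these steps or in any of the 4 CD43 comparisons. Of all 19788 genes, 871 were called higher and 688 lower from day 0 to day 2, and 983 and 896 from day 2 to day 4. A count of 0 of 9 is near the background in these early steps. Between CD43+ and CD43- cells 4.69% of all genes were called higher and 7.85% lower on day 6, and 12.2% and 13.6% on day 16. The differences of these 9 genes were small but not absent, since an unadjusted p below 0.05 was reached by 7 of the 9 from day 0 to day 2, by 3 from day 2 to day 4 and by 6 to 8 in the CD43 comparisons. Their summed level ranged from 10673 to 17560 over all samples.

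On day 6 GATA1 and GATA2 had separated into the CD43+ cells. They were the 2 of 8 members called between CD43+ and CD43- cells on that day, where 4.69% of all genes were called higher and 7.85% lower. GATA1 was at 2865, 2616 and 2677 in CD43+ cells and at 10, 6 and 6 in CD43- cells (log2 fold change 8.38, SE 0.62, adjusted p = 2.37e-11). GATA2 was at 10075, 9886 and 9230 against 1379, 1114 and 960 (3.09, SE 0.31, adjusted p = 4.58e-09). In CD43- cells GATA2 thus overlapped its day 2 values, whereas GATA1 was at 10 or below.

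Set against the unsorted cells of day 4, both blood factors were lower in the CD43- cells and GATA1 was higher in the CD43+ cells. GATA1 fell by 4.37 (SE 0.62, adjusted p = 2.73e-06) and GATA2 by 2.40 (SE 0.31, adjusted p = 6.56e-07) in CD43- cells, the 2 members called lower beside 2.77% of all genes. In CD43+ cells GATA1 rose by 4.01 (SE 0.62, adjusted p = 5.45e-06) and GATA4 fell by 2.15 (SE 0.48, adjusted p = 4.41e-04), where 14.5% of genes were called in either direction. Without day 6 CD43+ replicate 1 the value of GATA4 was -1.92, below 4-fold. GATA2 differed from day 4 by 0.70 (SE 0.31, adjusted p = 0.0594).

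**Figure D2:**
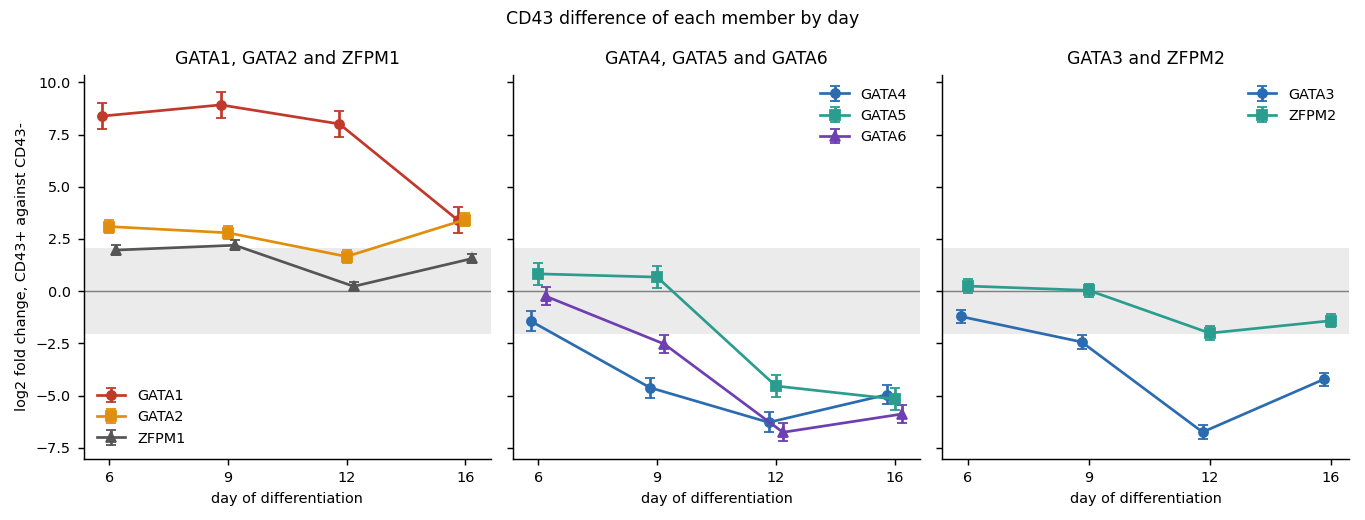
Log2 fold change between CD43+ and CD43- cells on days 6, 9, 12 and 16 for each member; bars are standard errors of the limma fit and the grey band marks changes under 4-fold. GATA1 stays between 8.01 and 8.92 until day 12 and is 3.39 on day 16, whereas GATA4 and GATA6 go from -1.45 and -0.24 on day 6 to -6.28 and -6.76 on day 12.

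ZFPM1 followed the CD43+ cells on days 6 and 9. It was at 1222, 1316 and 1344 in day 6 CD43+ cells against 344, 356 and 292 in CD43- cells, and at 1374, 1344 and 1364 against 268, 271 and 356 on day 9. The groups did not overlap on either day. The difference was 1.97 on day 6 (SE 0.23, adjusted p = 8.29e-08), just under 4-fold, and 2.20 on day 9 (SE 0.23, adjusted p = 4.64e-09), just over it. With median-of-ratios scaling the day 9 value was 1.98. On day 12 the CD43+ values of 348, 522 and 498 overlapped the CD43- values of 290, 372 and 519 (0.23, SE 0.23, adjusted p = 0.385). On day 16 they were 532, 682 and 342 against 136, 187 and 186, again apart, with a difference of 1.57 (SE 0.23, adjusted p = 1.17e-06).

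In CD43+ cells GATA1 and GATA2 followed different courses after day 6. On day 9 GATA1 was at 3858, 3487 and 3720, with no call against day 6 (0.44, SE 0.62, adjusted p = 0.652), while GATA2 was at 3890, 4472 and 4839, lower than on day 6 by less than 4-fold (-1.15, SE 0.31, adjusted p = 0.00509). On day 12 GATA1 was at 321, 1012 and 782, a change of -2.54 (SE 0.62, adjusted p = 0.00105), and GATA2 at 932, 1888 and 1724 (-1.60, SE 0.31, adjusted p = 7.96e-05). On day 16 GATA1 was at 1582, 2210 and 870, which overlapped day 12 (1.19, SE 0.62, adjusted p = 0.124), and GATA2 at 5632, 4148 and 4422, all above day 12 (1.70, SE 0.31, adjusted p = 7.87e-05). Both factors thus had their lowest CD43+ mean on day 12. Between day 9 and day 12, 5 of the 8 members were called lower in CD43+ cells, beside 6.54% of all genes: GATA1, GATA3, GATA5, GATA6 and ZFPM2.

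The difference between GATA1 and GATA2 within a sample, log2(GATA1 + 1) minus log2(GATA2 + 1), shows how the pair shifted against each other. Since the values are not per length, only its change across populations can be read. It was -8.87 ± 0.07 (SD, n = 3) on day 2, when GATA2 was present without GATA1, and -5.15 ± 0.25 on day 4. In CD43+ cells it was -1.84 ± 0.07 on day 6 and -0.25 ± 0.21 on day 9, the highest of all populations. It was -1.19 ± 0.32 on day 12 and -1.69 ± 0.73 on day 16, where single samples ranged from -2.34 to -0.91. In CD43- cells it lay between -9.07 and -5.53 in every sample of days 6, 9 and 12 and between -1.94 and -1.39 in every sample of day 16.

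**Figure D3:**
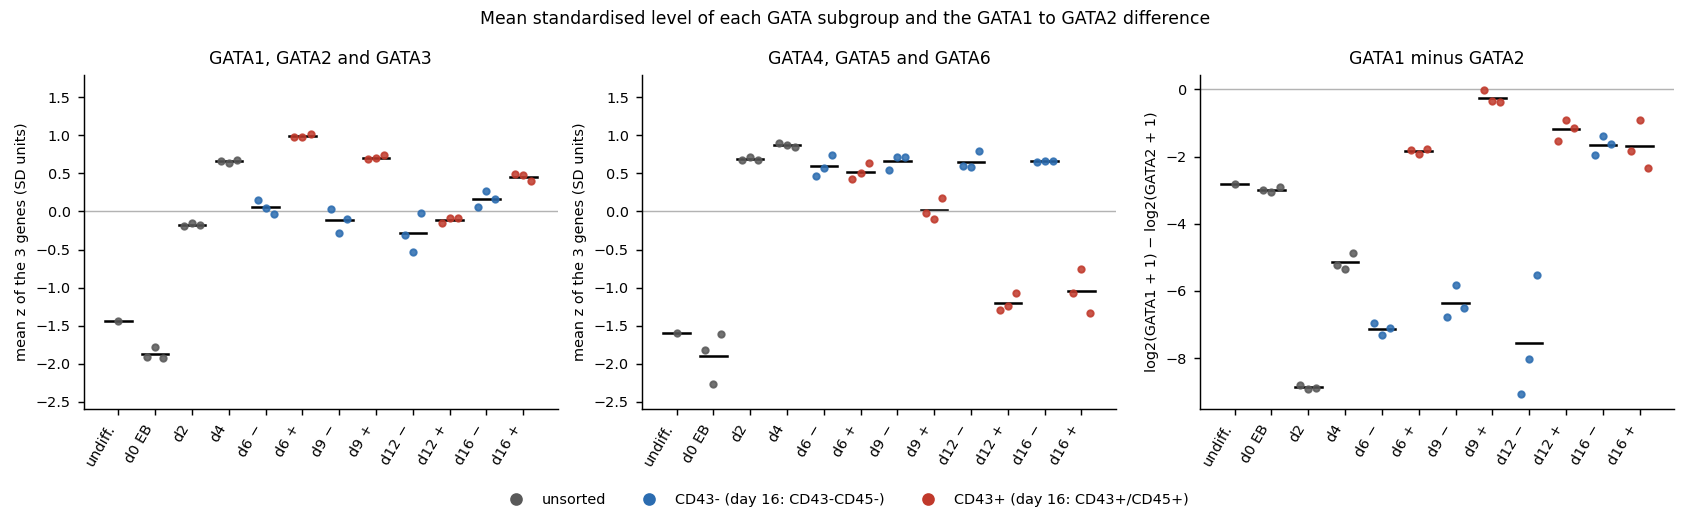
Mean standardised level of GATA1, GATA2 and GATA3 and of GATA4, GATA5 and GATA6 in each sample, each gene centred on its own mean over the 34 samples and divided by its own SD, and log2(GATA1 + 1) minus log2(GATA2 + 1); points are samples and bars are means of a population. In CD43+ cells the mean of GATA4, GATA5 and GATA6 goes from 0.52 on day 6 to -1.20 on day 12 while the CD43- means stay between 0.60 and 0.66.

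Erythroid, megakaryocyte, and mast cell and eosinophil genes are regulated by GATA1 and GATA2 in these lineages. They were for the most part higher in CD43+ cells, the last from day 9 on. Most haemogenic endothelium genes, which GATA2 also regulates, were lower there from day 9 on. Of 28 erythroid genes, 23 were called higher on day 6 and 24 on day 9, and the number went to 20 by day 12 and 18 by day 16. HBE1, embryonic epsilon globin, had the largest difference on day 6 (11.47, SE 0.67, adjusted p = 3.35e-13). Their summed level in CD43+ cells was 161876 to 194538 on day 6 and 230825 to 390445 on day 9, and 23031 to 45994 on day 12. Between days 9 and 12, 19 of the 28 fell in CD43+ cells, the interval in which GATA1 fell, with a median of -3.53 beside -0.15 over all genes. AHSP, the chaperone of alpha globin, fell most (-5.83, SE 0.60, adjusted p = 6.78e-09).

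Of 16 megakaryocyte genes, 13 were called higher in CD43+ cells on day 6 and 15 on each later day, with 1 lower, VWF, which endothelium also expresses. Between days 9 and 12, 0 of the 16 were called by limma in CD43+ cells and 4 had an unadjusted p below 0.05, with a median of -0.71. Of all 19788 genes, 1673 were called higher and 1295 lower in this step. Of 16 mast cell, basophil and eosinophil genes, CD43+ cells had 6 called higher with 2 lower on day 6, 12 higher with 1 lower on day 9, and 14 higher with 0 lower on days 12 and 16. The lower ones were ALOX15 on days 6 and 9 and RNASE2 on day 6, of which ALOX15 on day 6 and RNASE2 had differences of -2.35 (SE 0.60, adjusted p = 0.00188) and -3.07 (SE 0.80, adjusted p = 0.00234). RNASE2 was at 0 in all day 6 CD43+ samples, so the size of its difference depends on the 1 added to each value. In CD43+ cells 9 of them rose between days 9 and 12, led by EPX, eosinophil peroxidase (6.22, SE 0.88, adjusted p = 1.19e-06), while KIT, the stem cell factor receptor, fell (-2.38, SE 0.37, adjusted p = 4.43e-06). Of 18 haemogenic endothelium genes, 3 were called lower in CD43+ cells on day 6, 10 on day 9, 11 on day 12 and 12 by day 16, with 1 higher, HHEX, on day 12. TEK, the angiopoietin receptor, had the largest fall on day 12 (-5.60, SE 0.35, adjusted p = 1.56e-13). Genes of neutrophils and macrophages, which do not need GATA1, were called higher in CD43+ cells in 6, 13, 16 and 16 of 16 cases on the 4 days.

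**Figure D4:**
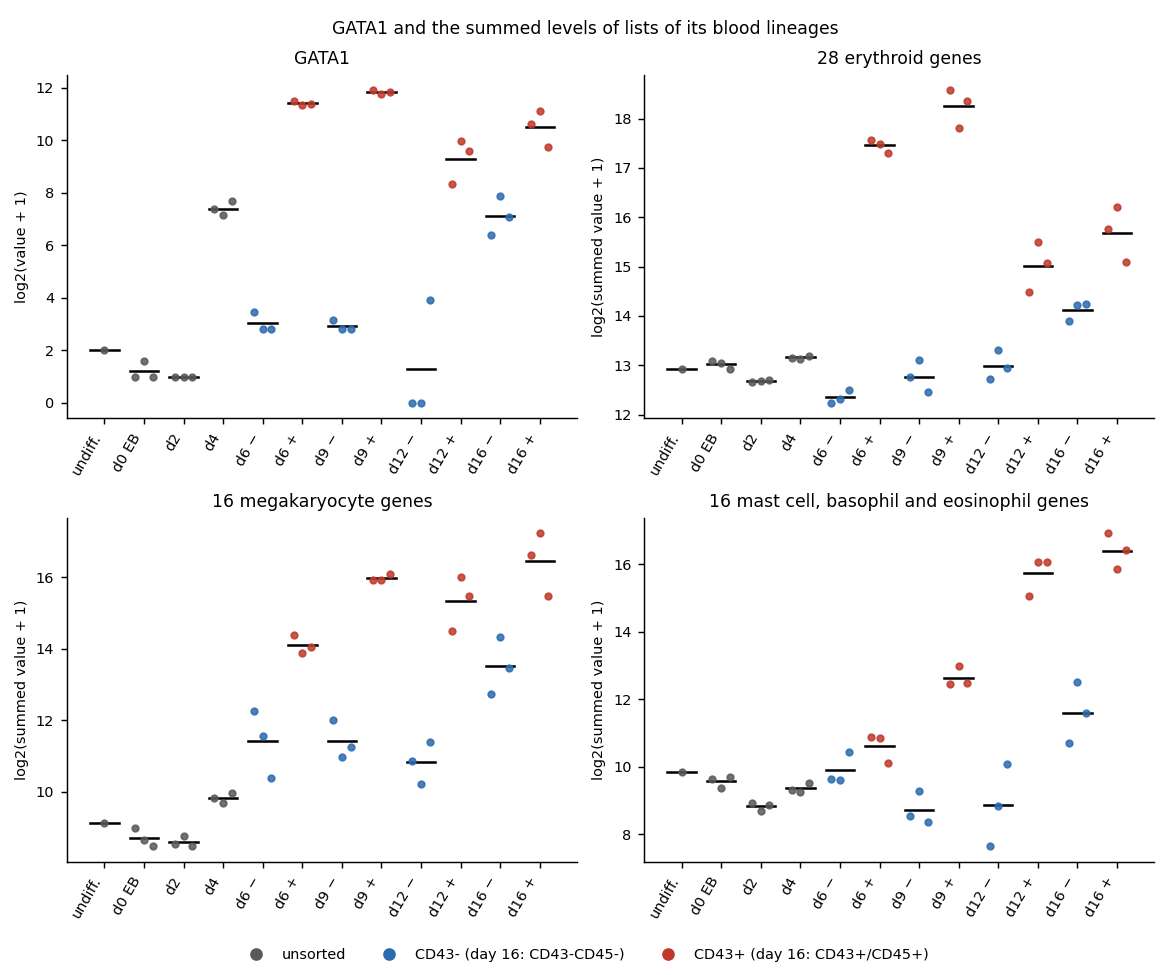
GATA1 and the summed values of 28 erythroid, 16 megakaryocyte and 16 mast cell, basophil and eosinophil genes in each sample, on log2 axes, by population; points are samples and bars are means. In CD43+ cells the erythroid sum is at 230825 or above on day 9 and at 45994 or below on day 12, and in CD43- cells GATA1 and the megakaryocyte sum are higher on day 16 than on day 12.

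Promoters of these target genes are shown because they hold the letters that GATA factors bind. Windows from 250 bases before to 50 bases after the start site, from RefSeq on GRCh38.p14, were searched on both strands for the motif AGATAA, the motif AGATAG, the motif TGATAA and the motif TGATAG, and capitals mark each match. GYPB encodes glycophorin B of the red cell membrane, ALAS2 the erythroid enzyme of the rate-limiting step of haem synthesis, and ITGA2B the megakaryocyte integrin CD41. The GYPB window is on the minus strand at chr4:144019296-144019595, that of ALAS2 on the minus strand at chrX:55030928-55031227 and that of ITGA2B on the minus strand at chr17:44389600-44389899.
GYPB: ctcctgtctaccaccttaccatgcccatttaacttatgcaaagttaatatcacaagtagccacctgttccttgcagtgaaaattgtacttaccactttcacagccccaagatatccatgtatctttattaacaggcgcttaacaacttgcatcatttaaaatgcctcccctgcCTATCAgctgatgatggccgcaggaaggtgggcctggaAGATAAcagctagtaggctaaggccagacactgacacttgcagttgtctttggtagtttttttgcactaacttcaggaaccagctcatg
ALAS2: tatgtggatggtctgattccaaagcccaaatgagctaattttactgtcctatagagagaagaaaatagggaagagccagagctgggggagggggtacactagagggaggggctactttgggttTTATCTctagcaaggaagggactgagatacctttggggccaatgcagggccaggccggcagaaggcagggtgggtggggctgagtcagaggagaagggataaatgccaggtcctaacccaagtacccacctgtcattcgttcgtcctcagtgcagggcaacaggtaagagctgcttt
ITGA2B: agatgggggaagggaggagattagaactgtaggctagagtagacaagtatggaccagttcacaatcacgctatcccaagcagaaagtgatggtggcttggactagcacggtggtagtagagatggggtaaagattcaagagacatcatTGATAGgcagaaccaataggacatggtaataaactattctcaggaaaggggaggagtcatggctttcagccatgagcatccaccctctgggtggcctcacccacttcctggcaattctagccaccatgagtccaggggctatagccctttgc

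The 3 genes were taken from those of the erythroid and megakaryocyte lists with the largest rises in CD43+ cells on day 6 whose window holds a match. Among all 35116 promoter windows, 25.0% hold a match. A match stood in 10 of 16 windows of the erythroid list, 6 of 12 of the megakaryocyte list, 10 of 19 of the haemogenic endothelium list, 8 of 13 of the mast cell list and 15 of 35 of the cardiac list. It stood in 5 of 18 windows of the endoderm list, 5 of 17 of the T, NK and innate lymphoid list, 4 of 15 of the trophoblast and amnion list and 2 of 16 of the neutrophil and macrophage markers. Among the windows of all genes tested the share was 17.8%. Of the members themselves, the 5 with an entry (GATA1, GATA2, GATA3, GATA6 and ZFPM1) had a match in 0 of 11 windows, which says only that these letters are not in this stretch.

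GATA3 left the CD43+ cells and stayed in the CD43- cells. It lies on chromosome 10 of GRCh38 from 8053604 to 8075198 on the plus strand. In CD43- cells it kept a level near that of day 2, with 1520, 1315 and 970 on day 6 and 1232, 538 and 999 on day 9. Later CD43- values were 1370, 749 and 846 (day 12) and 1030, 904 and 1050 (day 16). In CD43+ cells it was already lower, with 464, 476 and 706 on day 6, and went to 153, 156 and 174 on day 9 and 19, 4 and 6 on day 12, before reaching 49, 50 and 58 on day 16. The groups did not overlap on any of the 4 days. The CD43 difference of GATA3 started at -1.21 (SE 0.33, adjusted p = 0.00300) on day 6, under 4-fold. It widened to -2.43 (SE 0.33, adjusted p = 3.07e-07) by day 9 and to -6.75 (SE 0.33, adjusted p = 6.46e-16) by day 12, and stood at -4.22 (SE 0.33, adjusted p = 9.17e-12) on day 16.

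Between days 12 and 16 GATA2 rose in CD43+ cells by less than 4-fold (1.70). GATA3 was the only member called in this step, with a rise of 2.58 (SE 0.33, adjusted p = 5.90e-07), 1 of 8 beside 3.79% of all genes higher. Without day 12 CD43+ replicate 1, which at 19 was the highest of its group, the rise was 3.17 and the day 12 difference -7.33. With a pseudocount of 10 the rise was 1.74, under 4-fold. Of 14 T, NK and innate lymphoid genes, which GATA3 regulates in those cells, 1 fell between these days in CD43+ cells and 13 were not called. Over all 19788 genes, 1041 were called lower in this step, so that 1 of 14 is near the background. Against CD43- cells 4 of the 14 were called higher in CD43+ cells on day 16 and 2 lower. Over all genes 12.2% were called higher and 13.6% lower, so that 2 of 14 lower is near the background. The trophoblast and amnion list, whose lineages express GATA3, was at 58292 to 97401 in day 12 CD43- samples and at 890 to 1442 in day 12 CD43+ samples. On the other days its CD43- sums were lower, at 14292 to 24767 on day 6, 14623 to 23269 on day 9 and 40589 to 64320 on day 16. GATA3 showed no such rise in CD43- cells. The list also holds genes of other tissues, such as HAND1, which is on the cardiac list too.

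GATA3 starts close to an antisense gene that runs the other way without overlap, and the window is shown because it holds the starts of both. GATA3-AS1 runs from 8053484 to 8050450 on the minus strand, 119 bases from the GATA3 start. In the RefSeq window chr10:8053391-8053690, plus strand, the stretch between both starts is in capitals.
GATA3: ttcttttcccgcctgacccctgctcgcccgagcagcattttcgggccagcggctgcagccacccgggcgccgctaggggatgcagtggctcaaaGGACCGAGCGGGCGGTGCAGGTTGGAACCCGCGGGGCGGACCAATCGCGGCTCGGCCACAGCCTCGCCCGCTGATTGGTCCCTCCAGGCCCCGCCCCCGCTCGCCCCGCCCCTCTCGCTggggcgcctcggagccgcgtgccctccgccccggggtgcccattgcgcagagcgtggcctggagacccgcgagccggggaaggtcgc

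GATA3-AS1 was at 0 in the day 0 samples and at 202, 204 and 185 on day 2, when GATA3 came up. On day 6 it was at 192, 211 and 129 in CD43- cells and at 16, 24 and 28 in CD43+ cells (-2.92, SE 0.42, adjusted p = 2.21e-06). GATA2-AS1 overlaps GATA2 by 3974 bases on the opposite strand and was at 578, 573 and 638 in day 6 CD43+ cells against 126, 82 and 88 in CD43- cells (2.61, SE 0.40, adjusted p = 5.42e-06). GATA6-AS1 starts 474 bases from GATA6 and was at 10, 19 and 18 in day 9 CD43+ cells against 142, 262 and 204 in CD43- cells (-3.62, SE 0.33, adjusted p = 4.24e-10). In these comparisons each antisense gene differed in the direction of its neighbour. GATA3-AS1 was between 0 and 2 in day 9 CD43+ samples. It was at 0 in every CD43+ sample of days 12 and 16, between which GATA3 rose. Its CD43 difference moved by 0.64 (SE 0.60, adjusted p = 0.464) from day 9 to day 12, where that of GATA3 moved by -4.32. At values so near 0 GATA3-AS1 had almost no room to fall further in CD43+ cells, so later courses of the pair cannot be compared there. In CD43- cells its values were higher. Between days 9 and 12 they went from 140, 38 and 141 to 52, 22 and 27, which overlapped. This change was -1.51 (SE 0.42, adjusted p = 0.00648), under 4-fold. GATA3 changed by 0.13 (SE 0.33, adjusted p = 0.791) in the same cells and step. Whether the changes of the pair differed was not tested. Whether the counting used strand is not given in the sources used here, so reads of GATA2 and GATA2-AS1 cannot be told apart where they overlap, nor can those of GATA6 and RP11-627G18.1, which overlap by 1910 bases on opposite strands.

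GATA4, GATA5 and GATA6 were present in the first CD43+ cells and left them in steps. On day 6 GATA6 was at 1009, 1294 and 1439 in CD43+ cells and at 1164, 1226 and 2155 in CD43- cells, which overlapped (-0.24, SE 0.42, adjusted p = 0.672). Without day 6 CD43- replicate 3 the difference was 0.047. GATA5 was at 512, 535 and 667 against 255, 228 and 558 (0.83, SE 0.54, adjusted p = 0.206). GATA4 was at 156, 198 and 322 against 388, 900 and 582, without overlap (-1.45, SE 0.48, adjusted p = 0.0130). In the same CD43+ samples the 16 mesenchymal and stromal markers summed to 79807 to 185715, and to 334496 to 434794 in CD43- samples. Their part in the day 6 values of GATA4, GATA5 and GATA6 was not tested.

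By day 9 GATA4 and GATA6 were called lower in CD43+ cells and GATA5 was not. Among the 8 members 3 were called higher (GATA1, GATA2 and ZFPM1), beside 8.65% of all genes, and 3 lower (GATA3, GATA4 and GATA6), beside 12.8%. GATA4 was at 22, 18 and 70 against 608, 550 and 1374, a difference of -4.62 (SE 0.48, adjusted p = 3.21e-09), and of -5.21 without CD43+ replicate 3. GATA6 was at 300, 366 and 382 against 1808, 2324 and 1941 (-2.53, SE 0.42, adjusted p = 8.01e-06). GATA5 stayed at 550, 342 and 516 in CD43+ cells, which overlapped the 206, 462 and 250 of CD43- cells (0.67, SE 0.54, adjusted p = 0.275). Within CD43+ cells GATA4 was the member called lower between days 6 and 9 (-2.78, SE 0.48, adjusted p = 5.21e-05, and -3.37 without day 9 replicate 3), 1 of 8 beside 3.97% of all genes, and GATA6 differed by -1.83 (SE 0.42, adjusted p = 0.00144). The mesenchymal markers in CD43+ cells summed to 12180 to 32849 on day 9, to 30007 to 57024 on day 12 and to 14590 to 24172 on day 16. Their part in the values of GATA4, GATA5 and GATA6 on these days was not tested.

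On day 12 all 3 factors were at 25 or below in every CD43+ sample. GATA4 was at 8, 8 and 14, GATA5 at 10, 12 and 13, and GATA6 at 10, 13 and 25. In CD43- cells GATA4 was at 1082, 467 and 1130, GATA5 at 180, 396 and 350, and GATA6 at 1532, 1249 and 2647. The differences were -6.28 for GATA4 (SE 0.48, adjusted p = 5.87e-12), -4.54 for GATA5 (SE 0.54, adjusted p = 2.74e-08) and -6.76 for GATA6 (SE 0.42, adjusted p = 1.15e-13). GATA5 fell by 5.19 (SE 0.54, adjusted p = 7.57e-09) and GATA6 by 4.46 (SE 0.42, adjusted p = 1.62e-09) in CD43+ cells between days 9 and 12. With GATA3 and ZFPM2, 5 members were called lower in CD43+ than in CD43- cells on day 12, beside 14.4% of all genes, and GATA1 was called higher, beside 11.8%.

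On day 16 the pattern was close to that of day 12. GATA4 was at 18, 18 and 12 in CD43+ cells against 406, 576 and 590, GATA5 at 14, 48 and 4 against 584, 527 and 552, and GATA6 at 16, 38 and 16 against 1469, 1320 and 1198. The differences were -4.95, -5.17 and -5.89 (SE 0.48, 0.54 and 0.42, largest adjusted p = 2.78e-09). For GATA5 the value was -6.00 without CD43+ replicate 2 and -4.36 without replicate 3. With GATA3, these were the 4 members called lower, beside 13.6% of all genes, and GATA1 and GATA2 the 2 called higher, beside 12.2%. Of GATA4, GATA5 and GATA6, 0 were called by limma between days 12 and 16 in either sort, and 0 had an unadjusted p below 0.05.

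The change of the CD43 difference between days was tested directly. From day 6 to day 9 it was called for GATA4 (-3.17, SE 0.67, adjusted p = 0.00135) and GATA6 (-2.29, SE 0.60, adjusted p = 0.00737), 2 of 8 members beside 4.18% of all genes lower. From day 9 to day 12 it was called for GATA5 (-5.21, SE 0.76, adjusted p = 8.94e-06), GATA3 (-4.32, SE 0.46, adjusted p = 1.02e-07), GATA6 (-4.23, SE 0.60, adjusted p = 5.72e-06) and ZFPM2 (-2.05, SE 0.46, adjusted p = 0.00131), 4 of 8 beside 4.39%. From day 12 to day 16 it was called for GATA1 (-4.62, SE 0.87, adjusted p = 6.33e-04) and, upwards, for GATA3 (2.53, SE 0.46, adjusted p = 4.38e-04), beside 5.03% of genes in either direction. With only the populations compared in the fit the GATA1 change of -4.62 was no longer called, with a pseudocount of 10 the GATA3 change was 1.68, under 4-fold, and with a pseudocount of 0.1 the GATA6 change from day 6 to 9, at -2.30, was not called. For GATA5 the change from day 6 to day 9 was -0.15 (SE 0.76, adjusted p = 0.921); whether it differed from that of GATA4 was not tested.

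Many genes of cardiac mesoderm and endoderm, where GATA4, GATA5 and GATA6 act, were lower in CD43+ than in CD43- cells from day 6 on. Of 21 cardiac mesoderm genes, 10 were called lower on day 6, 13 on days 9 and 12 and 14 on day 16, with between 1 and 4 higher. NPPB, a natriuretic peptide of heart muscle, had the largest fall on day 6 (-6.16, SE 0.73, adjusted p = 9.40e-08), and MEF2C, which blood cells also express, was the 1 higher on day 12 (2.35, SE 0.31, adjusted p = 1.42e-07). Of 22 endoderm genes, 12 were lower on day 6, 14 on day 9 and 12 on days 12 and 16. Within CD43+ cells the summed level of these endoderm genes did not keep falling. It was 12333 to 14965 on day 6, 4392 to 5820 on day 9, 9090 to 16626 on day 12 and 15607 to 17556 on day 16. On each day it lay below every CD43- sum. LAMB1, a laminin chain of basement membrane that stroma makes too, had the largest fall on day 16 (-7.16, SE 0.24, adjusted p = 4.35e-19). Mesenchymal and stromal markers, the genes of the other cells in the CD43- sort, were lower in 10, 15, 15 and 14 of 16 cases on the 4 days.

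ZFPM2 did not follow GATA4 out of the CD43+ cells on day 9. It was at 1194, 1392 and 1754 in CD43+ and 1037, 1128 and 1497 in CD43- cells on day 6, and at 1102, 1455 and 930 against 998, 1304 and 1060 on day 9. The groups overlapped on both days, with differences of 0.24 (SE 0.32, adjusted p = 0.558) and 0.037 (SE 0.32, adjusted p = 0.932). On day 12 it was at 146, 331 and 258 against 586, 1296 and 1084, a difference of -2.01 (SE 0.32, adjusted p = 4.32e-06). It fell below 4-fold, to values between -1.91 and -1.68, without CD43- replicate 2 or 3 or CD43+ replicate 1. In CD43+ cells it changed between days 9 and 12 by -2.30 (SE 0.32, adjusted p = 1.17e-06), and by -1.96 without day 12 CD43+ replicate 1. On day 16 it was at 268, 273 and 162 against 594, 602 and 634 (-1.42, SE 0.32, adjusted p = 3.90e-04).

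In CD43- cells no step between days 6 and 12 was called for a member. Of the 8 members, 0 were called by limma between days 6 and 9 or between days 9 and 12, beside 1.75% and 7.33% of all genes in either direction, so that a count of 0 is near the background. Over both steps together, which were not tested as one, the mean of GATA2 went from 1151 on day 6 to 496 on day 12. At an unadjusted p below 0.05, 1 member passed in each step, GATA2 in the earlier (-0.85, SE 0.31, adjusted p = 0.0955) and GATA1 in the later (-1.63, SE 0.62, adjusted p = 0.0404, under 4-fold). GATA1 was at 8, 6 and 6 on day 9 and at 0, 0 and 14 on day 12. Without day 12 CD43- replicate 3, GATA1 was called lower in that step, at -2.93. The same replicate decides much of the day 12 CD43 difference of GATA1, which was 8.01 (SE 0.62, adjusted p = 8.88e-12) with all samples, 9.31 without replicate 3 and 7.36 without replicate 1 or 2.

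On day 16 GATA1 was present in the CD43-CD45- cells, at 83, 232 and 134. It was the only member called between days 12 and 16 in CD43- cells, with a rise of 5.81 (SE 0.62, adjusted p = 3.23e-08), 1 of 8 beside 4.46% of all genes higher. The rise was 7.11 without day 12 replicate 3 and 5.16 without replicate 1 or 2. All 3 day 16 samples lay above all day 12 samples. The CD43 difference of GATA1 on day 16 was 3.39 (SE 0.62, adjusted p = 2.53e-05). GATA2 in the same cells was at 322, 608 and 420, which overlapped its day 12 values of 538, 258 and 692, and its CD43 difference was 3.43 (SE 0.31, adjusted p = 1.68e-10) on day 16 and 1.66 (SE 0.31, adjusted p = 2.94e-05), under 4-fold, on day 12. ZFPM1 was lower on day 16 than on day 12 by less than 4-fold (-1.18, SE 0.23, adjusted p = 1.62e-04).

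Blood lineage genes moved with GATA1 in these cells. Between days 12 and 16 in CD43- cells, 14 of 16 megakaryocyte, 13 of 28 erythroid and 10 of 16 mast cell, basophil and eosinophil genes rose, and none of them fell. PF4, platelet factor 4, rose by 7.11 (SE 0.90, adjusted p = 4.89e-07), HBG2, a fetal globin, by 7.77 (SE 0.93, adjusted p = 2.19e-07), and PRG2, eosinophil major basic protein, by 6.59 (SE 1.35, adjusted p = 2.72e-04). The megakaryocyte genes summed to 1876, 1183 and 2672 on day 12 and to 6889, 20748 and 11297 on day 16. Replicate 2 was the highest and replicate 1 the lowest on day 16 for GATA1, for this sum and for SPN, at 84, 328 and 122. In day 16 CD43+ cells the sum was 45263 to 153278. AHSP was at 1, 0 and 0 in the day 16 CD43- samples, while ALAS2 was at 35, 49 and 75.

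Neutrophil and macrophage markers were also present in CD43- cells of both days, with sums of 290, 4851 and 13872 on day 12 and of 7696, 27423 and 15911 on day 16, where 6 of 16 rose and 5 fell. In day 16 CD43+ samples they summed to 314154 to 413305. PTPRC was at 4, 197 and 371 on day 12 and at 18, 42 and 22 on day 16. On day 12 replicate 3 was the highest for GATA1, for these markers and for PTPRC. The part of blood cells within the CD43- sort in the GATA1 values was not tested.

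The balance of GATA1, GATA2 and GATA3 against GATA4, GATA5 and GATA6 was computed in each sample from each gene's own standardised level, as a description. It was 0.024 ± 0.41 (SD, n = 3) in EBs, -0.87 ± 0.0090 on day 2 and -0.21 ± 0.037 on day 4. In CD43+ cells it went from 0.47 ± 0.08 on day 6 to 0.69 ± 0.12 on day 9, then to 1.09 ± 0.10 on day 12 and to 1.51 ± 0.26 by day 16. In CD43- cells it was -0.54 ± 0.23, -0.78 ± 0.24, -0.94 ± 0.15 and -0.50 ± 0.10 on the same days. On each of the 4 days every CD43+ sample lay above every CD43- sample. From day 6 to day 12 the CD43+ mean of the first group went from 0.99 to -0.11 and that of the second from 0.52 to -1.20, so that both went down and the second by more. GATA3 sits in the first group by its name in blood, although its values followed those of the second.

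Over the means of the 11 replicated populations, GATA3 correlated with GATA6 at Pearson r = 0.98, with GATA4 at 0.96 and with GATA5 at 0.92, and with GATA1 at -0.08 and GATA2 at 0.47. GATA4 and GATA6 correlated at 0.97 and GATA1 and GATA2 at 0.73. ZFPM1 correlated with GATA2 at 0.88 and with GATA1 at 0.72, and ZFPM2 with GATA4 at 0.53. These are descriptions over 11 points that share the same 33 samples and the large step from EBs to later cells.

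Among all 19788 genes, those with the highest r to each member over the same 11 means were as follows. For GATA1 they were RHAG, the Rh-associated glycoprotein of the red cell membrane, at 0.98, and SLFN14 and C2orf88. For GATA2 they were NUTM2D at 0.96, GATA2-AS1 at 0.95 and GAS2L1 at 0.94. GATA3 and GATA6 had each other as their closest gene. GATA4 was closest to GATA6-AS1 (0.98) and to the mesoderm factors MSX1 and HAND1, and GATA5 to GATA6 (0.95) and LEF1 (0.94), a Wnt effector. ZFPM1 was closest to MAPKAPK2 at 0.95 and ZFPM2 to BCORL1 at 0.97. Over the 33 single samples, 2 or 3 of the 3 closest genes were shared with this set for every member but ZFPM2, with 1.

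Ordered by their mean, the populations ranked differently from member to member. For GATA1 the order was day 9, day 6, day 16 and day 12 CD43+ cells, of which the last pair overlapped, then day 4 and day 16 CD43- cells, which overlapped, and after a gap the other CD43- cells, the EBs and day 2, whose neighbours overlapped. GATA2 was highest in day 6 CD43+ and then in day 4 cells, without overlap, and lowest in EBs. For GATA3, GATA4 and GATA6 the 6 highest places went to the unsorted cells of days 2 and 4 and the 4 CD43- populations. All neighbours among them overlapped. Day 6 CD43+ cells came next and overlapped the place above for GATA3 and GATA6, but not for GATA4. Day 12 CD43+ cells stood lowest but for the EBs. For GATA5 day 4 cells and day 6 CD43+ cells held the highest places, which overlapped. ZFPM1 was highest in day 9 and day 6 CD43+ cells, which overlapped each other and no other population, and ZFPM2 had an overlapping run of its 6 highest populations, from day 6 CD43+ to day 4 cells, with day 16 CD43- cells, day 12 and 16 CD43+ cells, day 2 cells and EBs below it.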

How the data were processed

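Total RNA of 34 samples was collected by the authors and sequenced by outside providers. Which provider took which sample is not given in the sources used here. Per the labels and the methods, reads were aligned with Bowtie2 and quantified with RSEM on Ensembl transcripts (STAR 2.7 and hg38 are also named in the submitters' processing notes), and EDASeq corrected the tags for GC content and then equalised the samples. The deposited table gives the result as a score, a normalised tag count rounded to whole numbers. Its GC column is a percent that the authors deposited with each gene and was not used. Depth is unknown and no counting interval can be given.

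The members and all gene lists were chosen with earlier results of these data known. limma 3.58.1 in R 4.3.3 (lmFit and eBayes with a trend) was fitted on log2(value + 1) for the 19788 genes that reached 10 in 3 or more samples, with population as the only term over the 33 samples of the 11 replicated populations. The single undifferentiated sample has no replicate and was not tested. Benjamini-Hochberg adjustment was over all 19788 genes. The fit was checked on simulated data. The 8 members are named in every population, with the 3 genes of highest Pearson r to each and, from each list, the genes with the largest rise or fall past both thresholds or named as background; AHSP and ALAS2 in the day 16 CD43- samples and the genes of the printed promoters were chosen after their values were seen.

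The labels do not say what a replicate number shares. Samples with the same number deviated together on day 6 (r of 0.198, 0.109 and 0.199 between CD43+ and CD43- deviations from their means). A replicate block was therefore also fitted within that day. On days 9, 12 and 16 r ranged from -0.015 to 0.108, the highest close to the lowest of day 6. Whether the numbers mark pairs on any day is not known. Alternatives were other pseudocounts, filters, scalings, a replicate block, robust variances, protein-coding genes only, only the compared populations, a 2-fold threshold and leaving out each sample. Python 3.11.15 and matplotlib 3.10.9 were used for tables and figures. Promoter windows and motif counts use RefSeq's table. Proteins were not analysed here.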

Additional observations from a re-analysis of the deposited data

Results flagged for a closer look

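By limma's test of the change itself, the CD43 difference was called as changed between successive days for 8 combinations of member and interval. Between days 6 and 9 it moved by -3.17 for GATA4 and -2.29 for GATA6. Between days 9 and 12 it moved by -5.21 for GATA5, -4.32 for GATA3, -4.23 for GATA6 and -2.05 for ZFPM2. Between days 12 and 16 it moved by -4.62 for GATA1, with GATA1 higher on day 16 in 3 of 3 CD43- samples than in any day 12 CD43- sample, and by 2.53 for GATA3, higher on day 16 in 3 of 3 CD43+ samples than in any of day 12. The value of GATA4 was -3.76 without day 9 CD43+ replicate 3. That of GATA3 between days 9 and 12 was -4.90 and between days 12 and 16 was 3.11 without day 12 CD43+ replicate 1, and that of GATA1 was -5.92 without day 12 CD43- replicate 3 and -3.97 without replicate 1 or 2. The change of ZFPM2 came under 4-fold, at -1.97 to -1.72, without any of 5 samples (day 9 CD43- replicate 1, day 9 CD43+ replicate 2, day 12 CD43- replicate 2 or 3, day 12 CD43+ replicate 1). With other settings the calls of GATA1 (only the populations compared, -4.62), GATA3 from day 12 to 16 (pseudocount 10, 1.68), GATA6 from day 6 to 9 (pseudocount 0.1, -2.30) and ZFPM2 (median-of-ratios scaling, -1.93) were lost. Other changes had an adjusted p below 0.05 in limma but were under 4-fold. They were those of ZFPM1 from day 9 to 12 (-1.97) and of GATA2 (1.77) and ZFPM1 (1.34) from day 12 to 16. The ZFPM1 change from day 9 to 12 ranged from -2.17 to -1.75 without single samples. No cause was tested.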

How the results depend on the processing

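The replicate block changed no count of members called, with 2 called on day 6 also when fitted within the day 6 populations, and 6 on each of days 9, 12 and 16. Above a 2-fold threshold the members called were 5 for CD43+ against CD43- cells on day 6, 4 for day 6 CD43+ cells against day 4, 4, 8 and 2 for the steps to days 9, 12 and 16 in CD43+ cells, 1 and 2 for the steps to days 12 and 16 in CD43- cells, and 4 for how the CD43 difference moved between days 12 and 16. Over all genes the shares past 2-fold were 27.1%, 29.8%, 16.2%, 32.2%, 21.4%, 17.9%, 24.1% and 9.86% in the same order. With a pseudocount of 10 that change was called for 1 member and the CD43+ step to day 16 for 0 by limma (GATA3 at 1.74, and 3 members had an unadjusted p below 0.05), and with a pseudocount of 0.1 the CD43- step to day 12 was called for 1 (GATA1) and the change from day 6 to 9 for 1. With only the populations compared in the fit, the change from day 12 to 16 was called for 1. Leaving out 1 sample at a time gave 1 to 2 members for day 6 CD43+ cells against day 4 and 0 to 1 for the CD43- step to day 12. It gave 3 to 6 for the change from day 9 to 12, 2 to 3 for that from day 12 to 16, 2 to 3 and 5 to 6 for the CD43 difference on days 6 and 12, 4 to 5 for the CD43+ step to day 12 and 5 to 6 for day 2 against day 0. Single calls lost under 1 setting were ZFPM1 on day 9 (1.98) and the ZFPM2 change from day 9 to 12 (-1.93) with median-of-ratios scaling, ZFPM2 on day 12 (-1.97) and the GATA3 change from day 12 to 16 (1.68) with a pseudocount of 10, the GATA6 change from day 6 to 9 (-2.30) with 0.1, and the GATA1 change from day 12 to 16 with only the populations compared, where its value stayed at -4.62. ZFPM2's day 9 difference turned to -0.18 with median-of-ratios scaling and ranged from -0.14 to 0.19 without single samples, and GATA6's day 6 difference from -0.40 to 0.047. Under that scaling the all-gene median of the day 9 difference was 0.038, where it was 0.24 before. Centred but not divided by the SD, the CD43+ minus CD43- balance was 3.71, 5.25, 6.83 and 6.20 log2 units on days 6, 9, 12 and 16. The GATA1 minus GATA2 difference in CD43- cells was -6.06, -5.27 and -5.13 on days 6, 9 and 12 with a pseudocount of 10 and -9.78 on day 12 with 0.1, as a constant weighs more on low values. The cause of the other changes was not tested. Quantile normalisation gave the same values, since all samples hold the same set. Depth limits could not be assessed.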
